A study of Mus musculus with 2 samples.

Results

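Tetraspanins are small membrane proteins that cross the lipid bilayer several times and gather partner proteins (integrins, immunoglobulin-family receptors and proteases) into membrane microdomains. Cd63 is the family member best known from late endosomes, lysosomes and secretory granules, and it is widely used as a marker of exosomes. Cd37, Cd53 and Tspan32 are largely restricted to leukocytes, whereas Cd9, Cd81, Cd82 and Cd151 are found at the surface of many cell types, T cells included. Lamtor1 anchors the Ragulator complex to late endosomes and lysosomes, where that complex takes part in the recruitment of mTORC1.

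The 9 genes described here are Cd63, Cd9, Cd81, Cd82, Cd37, Cd53, Cd151, Tspan31 and Tspan32, out of 31709 genes or transcript names on the array. They were chosen with earlier results of these data in view, in which Cd63 stood among the genes with the highest ratios, so all of their values are a description of what the choice already used. Among 39429 probes 15 were theirs, each matched to its gene through its transcript accession. Their 22 relatives on the same array, carried by 29 probes, are given for comparison.

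The data were 2 Agilent 2-colour mouse arrays of 1 pair of RNA extracts, one from Lamtor1-deficient CD4+ T cells (KO) and one from wild-type CD4+ T cells (WT). Array 1 had KO in Cy5 and WT in Cy3, and array 2 had the dyes exchanged, so that the arrays repeat the labelling and hybridisation only and count as 1 replicate. In both genotypes the strain was C57BL/6J, and per the labels CD4+CD62L+ naive T cells were isolated magnetically from spleen and cultured for 5 days on coated anti-CD3 with anti-CD28, IL-2 at 50 ng/ml and rhTGFβ at 1 ng/ml. The extraction text speaks of naive cells, so whether the RNA came before or after the culture is not settled by the labels; the labels used here do not give the promoter that drives the deletion, the deleted part of Lamtor1, the age of the mice or whether animals were pooled. With 1 extract per genotype no test was possible. Each ± gives the SD over the pair of arrays, a technical error that says nothing of the spread between animals.

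The Lamtor1 probe gave a log2 ratio of KO over WT of -1.97 on array 1 and -1.93 on array 2, which followed the labels; whether this probe lies in the deleted part is not known here. Across the 14874 measured genes (those with a signal well above background in KO or in WT on each of the arrays), the ratios of the 2 arrays had a Pearson r of 0.939 and a Spearman rho of 0.880; these are correlations across genes, and genes are no independent replicates. The technical SD of a gene had a median of 0.11. Between 43.2% and 51.3% of probes were well above background in each RNA on each array. A gene is called higher or lower here when both arrays showed a difference of 2-fold or more in that direction. In bulk RNA of this kind, a change in the share of cells that carry a transcript and a change in RNA per cell cannot be told apart.

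The probes that the results turn on read different stretches of the transcripts, and their letters are printed below with their positions. The first 5 lines give 30 bases of the brightest probes of Cd63, Cd82, Cd81, Tspan32 and Cd37, and the capitals mark AATAAA or ATTAAA, the letters of the common polyadenylation signal, which lie near the end of a messenger RNA. Such letters were present in the brightest probe of 5 of 9 members, in 5 of all 15 member probes (33.3%) and in 6602 of all 39429 probes (16.7%). The brightest probes of other genes were not counted apart, so nothing is read from these shares. Only the probe's own strand was searched. The letters alone do not place a probe in its transcript. The last 3 lines give 60-base probes without capitals, the only probe of Cd53 and the inner probes of Cd82, which lie upstream in the transcript. All are printed 5′ to 3′ as the scanner files give them, with positions on mm9.
Cd63, chr10:128349813-128349872 plus strand, probe bases 23 to 52: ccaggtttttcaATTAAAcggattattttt
Cd82, chr2:93259269-93259327 minus strand, probe bases 27 to 56: ctggaatcaattATTAAAggagggtttata
Cd81, chr7:150253737-150253796 plus strand, probe bases 31 to 60: tcaccttcaactgtaATTAAAtcttgaaac
Tspan32, chr7:150205329-150205388 plus strand, probe bases 26 to 55: actcctctccctAATAAAcccattgattct
Cd37, chr7:52489002-52489061 minus strand, probe bases 19 to 48: catgacacctcaAATAAAtcccctttgggt
Cd53, chr3:106565046-106566140 minus strand: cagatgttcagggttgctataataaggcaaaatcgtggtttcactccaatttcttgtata
Cd82 at transcript base 878, chr2:93260018-93260077 minus strand: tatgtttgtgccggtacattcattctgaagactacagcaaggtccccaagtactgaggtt
Cd82 at transcript base 208, chr2:93274019-93274078 minus strand: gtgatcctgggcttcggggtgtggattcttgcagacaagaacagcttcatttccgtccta
The 60 bases of the Cd53 probe span 1095 bases of the genome in the files, so that this probe crosses at least 1 intron.

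Cd63 was far higher in KO RNA, Cd53 was lower, and the other 7 tetraspanins differed by about 2-fold or less. All 15 probes of the 9 genes were well above background in both RNAs on both arrays, and none of their spots was saturated or marked as an outlier. By the 2-fold rule 1 of 9 was called higher, where 2.46% of all measured genes were, and 1 of 9 was called lower, where 6.88% of all measured genes were; since the genes were chosen from this contrast, nothing is read from these shares. With each array centred on its median in place of loess, the shares of all measured genes were 0.746% higher and 5.92% lower. The log2 ratio was above 0 on both arrays for 4 members (Cd63, Tspan32, Cd9 and Cd151) and below 0 on both for 4 (Cd53, Cd82, Cd81 and Tspan31), while Cd37 had opposite signs on the 2 arrays. The median of the 9 log2 ratios was 0.04, beside -0.02 for all measured genes.

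**Figure D1:**
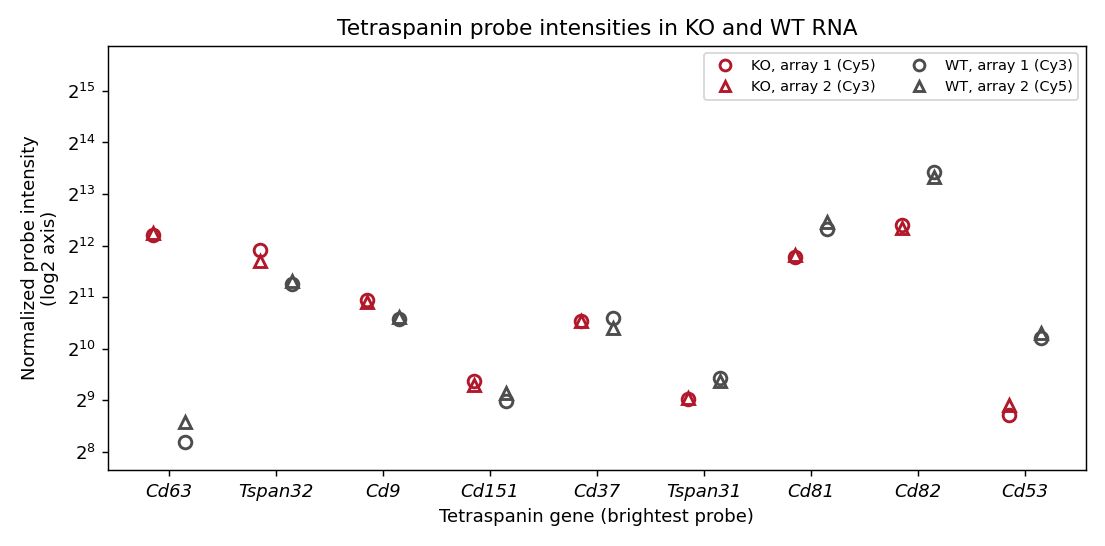
Normalized intensity (log2 axis) of the brightest probe of each of the 9 genes in KO RNA (red, left in each pair) and WT RNA (grey, right), with circles for array 1 and triangles for array 2. Compared within a gene, the KO values of Cd63 (4742 and 4831) lie far above its WT values (291 and 381), and the KO values of Cd53 (423 and 482) lie below its WT values (1180 and 1259).

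Cd63, the late-endosomal member, has 1 probe on the array. Its uncorrected mean signal was 5384 on array 1 and 2686 on array 2 in KO RNA, over local backgrounds of 35 and 40. In WT RNA the signal was 260 and 638, over local backgrounds of 42 and 38. After normalization the level was 4742 and 4831 in KO RNA, against 291 and 381 in WT RNA. Both KO values were thus far above both WT values, and the WT values were themselves above background, so that Cd63 was measured in both genotypes. The log2 ratio was 4.02 on array 1 and 3.66 on array 2, a mean of 3.84 ± 0.26 or 14.4-fold, and it ranked 13 of 14874 measured genes from the highest ratio down. The single probe means that no other stretch of the Cd63 transcript was read.

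Cd53, a leukocyte tetraspanin, was the member with the lowest ratio. Its level was 423 and 482 in KO RNA, against 1180 and 1259 in WT RNA. The log2 ratio was -1.48 on array 1 and -1.39 on array 2, a mean of -1.43 ± 0.07, which is 2.70-fold lower in KO. Both arrays passed the 2-fold line.

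Cd82, known in human tumours as the metastasis suppressor KAI1, lay at the edge of the rule. Its brightest probe, at transcript base 1758, read 5420 and 5191 in KO RNA, against 11076 and 10343 in WT RNA. The log2 ratios were -1.03 and -0.99, a mean of -1.01 ± 0.03, so that array 1 was just past the 2-fold line and array 2 just short of it. The probes upstream gave smaller differences: -0.72 ± 0.19 at base 878 and -0.50 ± 0.10 at base 208. At base 878 the levels were 663 and 551 in KO RNA, against 999 and 996 in WT RNA. At base 208 they were 334 and 309 in KO RNA, against 451 and 458 in WT RNA. All 3 probes were thus lower in KO on both arrays, by sizes that differed by 0.51 on the log2 scale between the outermost. By the rule, Cd53 is thus the called member nearest to its limit and Cd82 the nearest member not called.

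Cd81, known in human liver cells as an entry receptor of hepatitis C virus, read 3528 and 3599 in KO RNA, against 5093 and 5628 in WT RNA. Its log2 ratio was -0.53 and -0.65, a mean of -0.59 ± 0.08. KO and WT values did not overlap, and the difference was under 2-fold on both arrays.

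Cd9, which also forms surface complexes with integrins and immunoglobulin-family proteins, read 1982 and 1918 in KO RNA, against 1524 and 1564 in WT RNA. The log2 ratio was 0.38 and 0.29, a mean of 0.34 ± 0.06, with no overlap of the values, though its sign on the mean turned when arrays were centred on their median (-0.23). Cd151, a partner of laminin-binding integrins, had 2 probes. The brighter one, at chr7:148657237-148657297, read 662 and 629 in KO RNA, against 510 and 562 in WT RNA, a mean log2 ratio of 0.27 ± 0.15 that became -0.19 with median centring. The dimmer one, at chr7:148656555-148656614, had log2 ratios of 0.19 and -0.08, so that the arrays differed in sign. For both genes the sign of the mean ratio therefore depended on the normalization. Median centring also moved the median of all measured genes to -0.38. Relative to that shift Cd9 was at 0.15 and Cd151 at 0.19, above 0 as with loess.

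The other leukocyte members were Cd37 and Tspan32. Mouse T cells that lack Cd37, Tspan32 or Cd151 are known to proliferate more than normal in culture. Cd37 read 1497 and 1479 in KO RNA, against 1558 and 1345 in WT RNA, and these values overlapped. Its 2 probes had mean log2 ratios of 0.04 ± 0.14 and -0.01 ± 0.10. Tspan32 read 3837 and 3337 in KO RNA, against 2460 and 2545 in WT RNA, with no overlap. The mean log2 ratio of its brightest probe was 0.52 ± 0.18, and its other probes gave 0.57 ± 0.16 (transcript base 852) and 0.31 ± 0.01 (transcript base 69). All 3 Tspan32 probes were higher in KO on both arrays, under 2-fold. With median centring the brightest gave -0.07, or 0.30 relative to the median of all measured genes.

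Tspan31 read 522 and 526 in KO RNA, against 687 and 662 in WT RNA, and its log2 ratio was -0.40 and -0.33, a mean of -0.36 ± 0.04. The files place 21 bases of its probe at chr10:126504346-126504366, minus strand. That is 8 bases from the nearest probe of Cdk4, the cell-cycle kinase whose gene lies beside it. The brightest Cdk4 probe read 6787 and 7150 in KO RNA, against 6666 and 6587 in WT RNA, a log2 ratio of 0.07 ± 0.07, and the other Cdk4 probes gave 0.02 and 0.21. Tspan31 was thus lower in KO by a small amount while its neighbour differed by less.

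**Figure D2:**
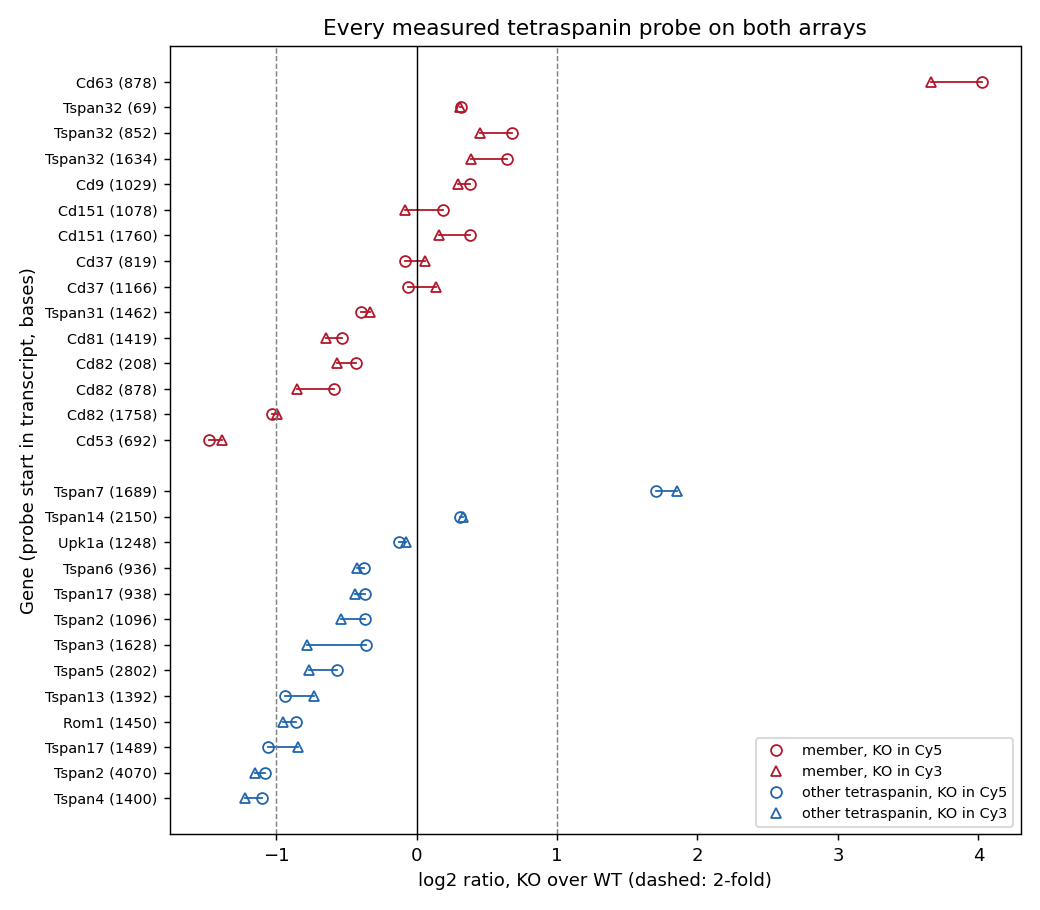
Log2 ratio of KO over WT for every measured tetraspanin probe, with circles for the array with KO in Cy5 and triangles for the array with KO in Cy3; red rows are the 9 genes and blue rows the other tetraspanins, and the number beside a gene is the probe's first base in the transcript. Cd63 stands alone near 3.84, Cd53 and 2 of the blue genes (Tspan2 and Tspan4) lie beyond the lower 2-fold line on both arrays, and the 3 Cd82 probes spread between -1.01 and -0.50.

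Among the 22 other tetraspanins 11 were measured, and 10 were not above background in either RNA on either array (Prph2, Tspan1, Tspan8, Tspan10, Tspan11, Tspan12, Tspan15, Tspan18, Tspan33 and Upk1b). Of the 11 measured, 2 were above 0 on both arrays and 9 below 0 on both. Their median log2 ratio was -0.66, beside -0.02 for all measured genes. The 9 genes above split 4 to 4, but they were chosen with earlier results known. No test of that difference was made, and nothing is read from it. Tspan7 was called higher in KO, with levels of 226 and 199 in KO RNA, against 69.6 and 54.8 in WT RNA. Its WT spots were not well above background, so that the difference is at least 2.91-fold, where the bound sets the mean KO level against, on each array, the lowest WT signal counted as well above background or the probe's own where that is higher. Tspan4 was called lower, with 141 and 149 in KO RNA, against 303 and 348 in WT RNA, a log2 ratio of -1.16 ± 0.09. Tspan2 was called lower on its brighter probe (-1.12 ± 0.05), was not well above background in KO and was at least 2.17-fold lower there, while its second probe gave -0.45 ± 0.12. With median centring neither Tspan4 nor Tspan2 was called.

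The other measured relatives were not called, although Tspan17 was called lower under 5 of the 11 alternatives. Tspan17 (-0.95), Rom1 (-0.90), Tspan13 (-0.83), Tspan5 (-0.66), Tspan3 (-0.57) and Tspan6 (-0.40) were lower in KO on both arrays with loess. Upk1a gave -0.10 and Tspan14 gave 0.32 on the log2 scale. Cd63 and Tspan7 were thus the tetraspanins called higher in KO, out of 20 measured in all, where 2.46% of all measured genes were. Cd63 was chosen with its high ratio known, and Tspan7 was measured through KO RNA alone, so nothing is read from this count.

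**Figure D3:**
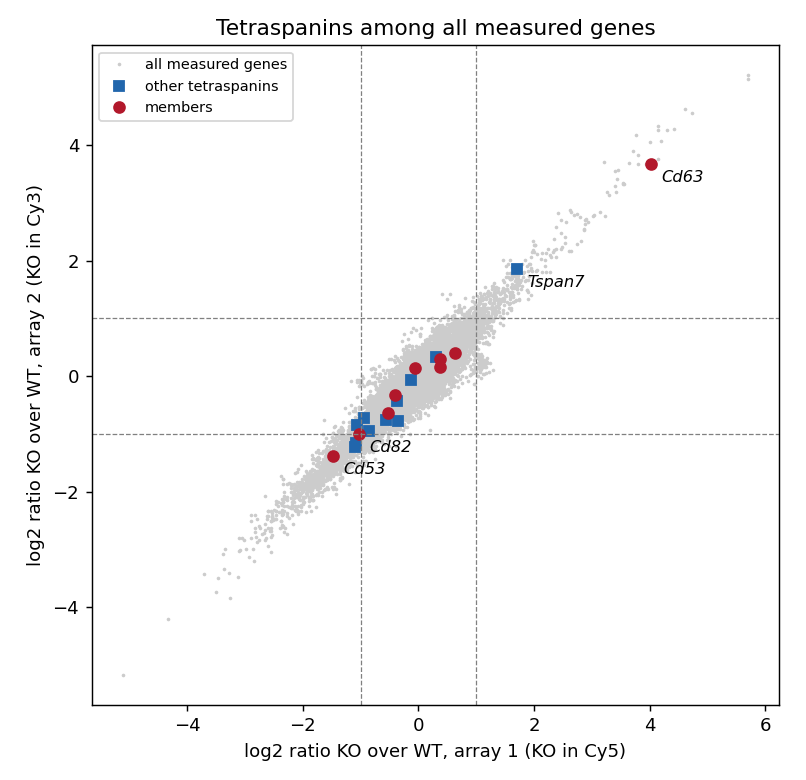
Log2 ratio of KO over WT on array 1 (x axis, KO in Cy5) and array 2 (y axis, KO in Cy3) for the 14874 measured genes (grey), the 9 genes (red circles) and the other measured tetraspanins (blue squares), with dashed lines at 2-fold. Cd63 lies at 4.02 and 3.66 near the upper end of the cloud, Tspan7 lies at 1.70 and 1.86, and most other tetraspanins lie within the 2-fold lines or just beyond the lower one.

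The proteins that tetraspanins bind at the cell surface were measured for 23 of 27 genes on that list. Of the 23, 1 was called higher and 5 were called lower in KO, with a median log2 ratio of -0.26. Of all measured genes 2.46% were called higher and 6.88% lower. The list was chosen with earlier results of these data known, so nothing is read from these shares. On both arrays 5 of the 23 were above 0 and 15 below. Ifitm1, an interferon-induced membrane protein that in human leukocytes associates with CD81, was higher at 3.44 ± 0.18. Ifitm3, on the same list, was below 0 on both arrays and not called (-0.64 ± 0.12). The lower ones included Cd47 (-1.79 ± 0.22), which signals to phagocytes, the integrin subunit Itga4 (-1.58 ± 0.31) and the peptidase Dpp4 (-1.45 ± 0.10), also known as CD26. The co-receptors Cd4 and Cd5 were lower as well, at -1.18 ± 0.05 and -1.12 ± 0.12.

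Genes for the machinery through which Cd63 travels are given beside its value. Cd63 was chosen with its high ratio known, so nothing is read from their lying closer to 0. Of all measured genes 2.46% were called higher and 6.88% lower, shares at which lists of this size hold few called genes. Of 16 genes for Cd63 sorting and late-endosome membrane proteins, 15 were measured and none was called in either direction; no p-value exists for this count, since no test was possible. Their log2 ratios ran between -0.68 and 1.07, with a median of 0.22, and 9 were above 0 on both arrays while 5 were below. Lamp2, a lysosomal membrane protein, gave 1.07 ± 0.13 and Ap3d1, a subunit of the AP-3 adaptor that carries Cd63 to lysosomes, gave 1.05 ± 0.17; each was past 2-fold on array 1 and short of it on array 2, and both were singled out after their values were seen. Of 27 exosome and multivesicular-body genes, 26 were measured and none was called, with log2 ratios between -0.98 and 0.67 and a median of 0.12.

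Cd63 is also abundant in mast cells, basophils, platelets and macrophages, and the markers of such cells are given beside its value. Of all measured genes 2.46% were called higher and 6.88% lower, and nothing is read from the calls on these lists. Of 10 mast cell and basophil markers 2 were measured, and Kit, the stem cell factor receptor, was called higher in KO at 2.05 ± 0.19, with WT well above background on 1 of 2 arrays. Tpsb2, the other measured marker, was above 0 on both arrays and not called (0.45 ± 0.34). Of these 10 markers 6, namely Fcer1a, Ms4a2, Mcpt4, Mcpt8, Gata2 and Cd200r3, were not above background in either RNA on either array. Of 10 platelet markers 1 was measured and none was called, and Pf4, Ppbp, Treml1 and the platelet glycoprotein genes Gp1ba, Gp1bb, Gp5, Gp6 and Gp9 were not above background in either RNA on either array. The summed level of all 10 listed mast cell and basophil markers, measured or not, was 1301 and 1147 in KO RNA, against 864 and 876 in WT RNA. The summed level of all 10 listed platelet markers was 1458 and 1268 in KO RNA, against 2147 and 2194 in WT RNA. Most of each sum was Itgb3, the 1 measured gene, which was not called (-1.07 ± 0.21). It read 815 and 662 in KO RNA, against 1546 on each array in WT RNA. The remaining 9 were not measured, so the sums do not describe platelet markers as a group.

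Of 15 myeloid and dendritic markers 10 were measured, with 3 called higher and 1 lower, where 2.46% and 6.88% of all measured genes were. The list was chosen with earlier results of these data known, so nothing is read from these counts. The summed level of all 15 was 37910 and 37350 in KO RNA, against 24190 and 24280 in WT RNA. Most of each sum came from Siglech and Itgam, neither of which was called. Siglech read 22980 and 23980 in KO RNA, against 12920 and 13690 in WT RNA. Itgam read 9309 and 8275 in KO RNA, against 5526 and 5286 in WT RNA. Of the 10 measured, 8 were above 0 on both arrays and 2, Cst3 (-0.49 ± 0.12) and H2-Ab1, were below. S100a9 (3.96 ± 0.28), S100a8 (at least 4.93-fold) and Lyz1 (at least 2.97-fold) were called higher, although in WT RNA S100a8 and Lyz1 were well above background on neither array and S100a9 on 1 of 2; and H2-Ab1 (-1.90 ± 0.07) was called lower. Adgre1, Cd14, Cd68 and Spi1, which define macrophages or their lineage, were not above background in either RNA on either array. Csf1r, on the same list, was well above background in both RNAs on both arrays and was not called (0.40 ± 0.15). Lyz2 was well above background in KO RNA alone and was not called (0.62 ± 0.03). Of 14 markers of CD8 T and NK cells 12 were measured and 7 were called higher, where 2.46% of all measured genes were. This list too was chosen with earlier results of these data known, so nothing is read from the share. Among the 7 were Gzma (5.45 ± 0.35), Fcer1g (4.35 ± 0.11), Tyrobp (at least 4.30-fold) and Klrc1 (1.80 ± 0.01). On both arrays 11 of the 12 were above 0, while Cd8b1 was below it (-0.55 ± 0.01). Cd8a (0.67 ± 0.03) and Prf1 (0.41 ± 0.01) were not called, and Klrk1 and Ncr1 were not measured. Tyrobp and 2 others of the 7, Klrb1c and Klra8, were not well above background in WT RNA on either array. They counted as measured through KO RNA alone, where they were high. The summed level of all 14 was 28600 and 26670 in KO RNA, against 4671 and 4595 in WT RNA. Gzma alone read 16900 and 15020 in KO RNA, against 325 and 407 in WT RNA. The part of any of these cell types in the Cd63 value was not tested.

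The labelled cell type was checked in the same way. All 11 CD4 T cell markers were measured in both RNAs, with a summed level of 72180 and 68800 in KO RNA, against 96630 and 95510 in WT RNA. Trat1, a T cell receptor adaptor protein, was called lower at -2.69 ± 0.03, as were Cd4 and Cd5. The other 8 were not called. Of all measured genes 6.88% were called lower. Nothing is read from this share, since the list was chosen with earlier results of these data known. Of the 11 markers, 6 were below 0 on both arrays and 2, Lck (0.16 ± 0.06) and Cd3e (0.09 ± 0.01), were above. Most of the difference in the sums came from Cd2 (-0.89 ± 0.24) and Cd3d (-0.79 ± 0.09), which were not called. Of 8 B cell markers 1 was measured, Cd79b at 0.62 ± 0.05, with 209 and 191 in KO RNA, against 140 and 121 in WT RNA. The B cell markers Cd79a and Fcer2a were not above background in either RNA on either array.

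The genes whose pair of ratios was most like that of Cd63, by Euclidean distance over the log2 ratios of the 2 arrays, were an unnamed transcript (distance 0.05), Tac2 (0.08), Akr1c18 (0.16), Ccr9 (0.22) and Lpar6 (0.27). Their mean log2 ratios were 3.81, 3.81, 3.96, 3.74 and 3.81 in that order, beside 3.84 for Cd63. All were well above background in both RNAs on both arrays. The likeness rests on 1 pair of extracts.

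Cd63 and Cd53 were called under each of the 11 other ways of processing the arrays, but several of these could not have changed the calls. Each gene has 1 probe, no outlier spot and signal in both RNAs. The changed detection filters, the median over probes and the kept outliers therefore left their values as they were. A call already needs each array to pass alone, and the series matrix repeats the software-processed signals. The log2 ratio of Cd63 lay between 3.30 and 4.21 and that of Cd53 between -1.93 and -1.39. When each array was centred on its median in place of loess, the mean ratio of all measured genes shifted to a median of -0.38, and the arrays disagreed: Cd9 gave 0.55 on array 1 and -1.01 on array 2. Relative to that shift, Cd63 was at 3.67, Tspan32 at 0.30, Cd151 at 0.19, Cd9 at 0.15, Cd37 at -0.14, Tspan31 at -0.45, Cd81 at -0.82, Cd82 at -1.25 and Cd53 at -1.55. The order of the 9 genes was thus close to that given by loess, with Cd9 and Cd151 exchanged.

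**Figure D4:**
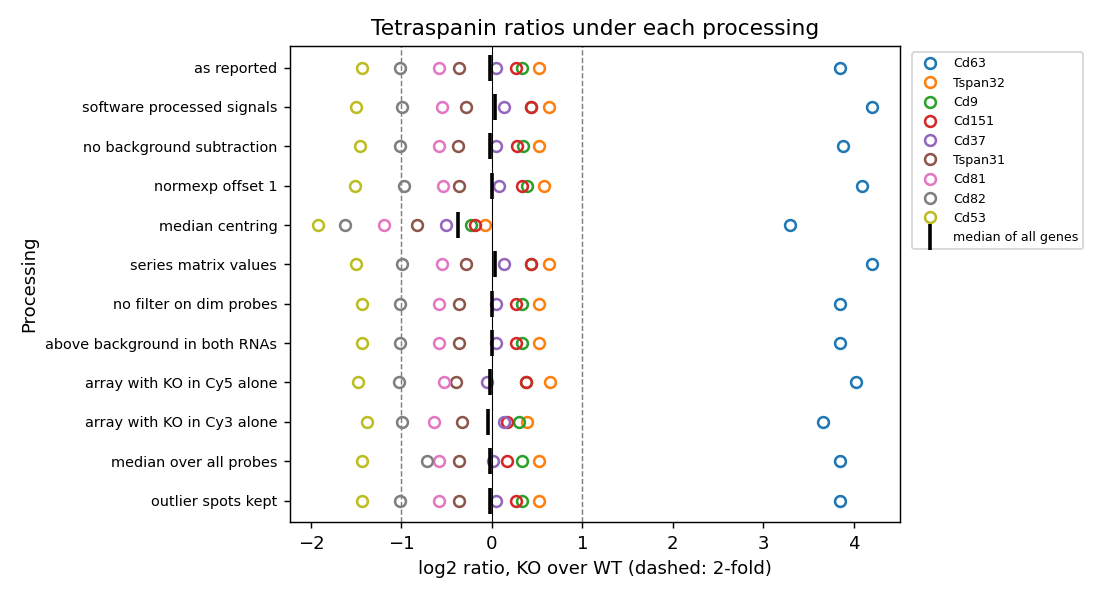
Log2 ratio of KO over WT (x axis) of the 9 genes under the processing reported here and 11 alternatives (rows), with black bars for the median of all measured genes and dashed lines at 2-fold. Cd63 stays between 3.30 and 4.21 and Cd53 between -1.93 and -1.39, while median centring moves the bar to -0.38 and carries Cd9, Cd151, Tspan32 and Cd37 below 0.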

How the data were processed

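For both channels, the scanner files deposited by the authors give a mean intensity and a median local background intensity per spot, uncorrected, and a processed intensity that was background-subtracted and dye-normalized, per the file headers. The authors' series matrix gives Cy5 over Cy3 as log10 ratios, which equalled those of the scanner software in every value compared. The software was Feature Extraction, in version 10.7.3.1 per the file headers and in version 10.5.1.1 per the submitters' processing notes.

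Normexp with an offset of 50 was applied to the mean intensities, followed by loess on each array separately (limma 3.58.1 in R 4.3.3, with data.table in version 1.17.8), control spots having weight 0. Outlier spots were left out, spots of a probe averaged, and ratios turned to log2 of KO over WT by the labelled dyes; the offset shrinks ratios of dim probes. Levels are intensities after loess and Aquantile scaling and are compared within a probe. The brightest probe stood for a gene. Of 39429 probes, 26055 were named by matching their accession to the RefSeq gene table, and the others by symbol, synonym or as in the file. Plots used Python 3.11.15 and matplotlib 3.10.9.

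Named genes were every member, called genes of each list (at most 4, by size), Cdk4, Lamtor1 and the 5 genes nearest to Cd63; Cd4 and Cd5 stand under the CD4 T cell list. The uncalled relatives, Lamp2, Ap3d1, Ifitm3, Cd79b and the other uncalled markers named were picked after their values were seen. The members and lists were chosen with earlier results of these data known.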

Additional observations from a re-analysis of the deposited data

How the results depend on the processing

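Each count of calls, the median of the 9 genes and each gene's ratio were recomputed under 11 alternatives (software-processed signals, no background subtraction, normexp with offset 1, median centring, the deposited series matrix, no filter on dim probes, probes above background in both RNAs, each array alone, the median over all probes, and outlier spots kept). Cd63 was called higher and Cd53 lower in each, and no called value changed sign. As given above, several of the alternatives could not have changed these calls. With median centring the median of the 9 genes was -0.51, against 0.04 with loess, and 0 other tetraspanins were called lower. Array 1 alone (KO in Cy5) called 2 of the 9 genes lower, Cd53 and Cd82. With probes required above background in both RNAs, 0 other tetraspanins were called higher and 1 was called lower (Tspan4), because Tspan7 and Tspan2 each lack such a signal in 1 RNA. Tspan17 was also called lower with software-processed signals, the series matrix, no background subtraction, offset 1 and array 1 alone, which made 3 other tetraspanins lower. With the median over all probes 1 other tetraspanin was called lower (Tspan4), because the second Tspan2 probe differed by less. The cause of the difference between loess and median centring was not tested. Over all measured genes, 366 were called higher and 1024 lower with the processing reported here. Software-processed signals and the series matrix gave 867 and 1614, offset 1 gave 609 and 1398, and median centring 111 and 881. Array 1 alone gave 556 higher. No paired analysis was possible because each genotype gave a single RNA extract. For the same reason the technical SD is the only error available, and the number of arrays and signal over background limit its precision.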

Other observations

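Several tetraspanin genes lie close together on mm9, and the measured neighbours had ratios of opposite sign with loess. Cd151 and Tspan32 turned below 0 with median centring, which also moved the median of all measured genes down. Within 300 kb of each other, by the start of their probes, 4 pairs were found. Cd151 and Tspan4 lie 22 kb apart on chromosome 7, and their log2 ratios of KO over WT were 0.27 and -1.16. Tspan32 and Cd81 lie 48.4 kb apart on chromosome 7, at 0.52 and -0.59. Cd82 lies 107.8 kb from Tspan18 on chromosome 2, and Tspan18 was not above background in either RNA. Tspan11 and Tspan9 on chromosome 6 were not measured. Chromosome 7, which carries Lamtor1, also carries 4 of the 9 genes; the distances of their probes from the Lamtor1 probe ran from 39.6 Mb (Cd151) to 56.6 Mb (Cd37), and their ratios ran in both directions. These pairs were looked for after the values had been seen, and with 1 extract per genotype they carry no test.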
